A study of Mus musculus with 3 samples.

Results

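The immediate early and feedback genes examined here were 10 protein-coding genes, Junb, Jun, Fos, Egr1, Ier2, Atf3, Klf6, Klf10, Errfi1 and Myc, of 22367 protein-coding genes in the GENCODE M1 annotation of the mouse NCBI37/mm9 genome. They were named as a list and partly chosen by RARα peak scores, because Junb and Errfi1 hold some of the highest scores, so the RARα values below are descriptions. Immediate early genes are transcribed within minutes of a growth factor, cytokine or stress signal without new protein synthesis, and many of them encode transcription factors. Feedback genes are switched on by the same signals and dampen them. In liver these genes are known for their induction by partial hepatectomy, by injury and by handling of the tissue. Retinoic acid receptor α (RARα) and retinoid x receptor α (RXRα) are nuclear receptors that bind DNA as a heterodimer, classically at a pair of AGGTCA half-sites that point the same way and stand 5 bases apart (DR5).

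The samples were livers of male wild type C57BL/6 mice of 3 months, with no treatment named in the labels. There were 3 libraries, namely 1 from chromatin immunoprecipitated (ChIP) with an anti-RXRα antibody, 1 from chromatin precipitated with an anti-RARα antibody, and 1 from input chromatin. No group had a replicate and the number of mice behind a library is not given in the sources used here, so no value below has an error between mice. In whole liver, binding in fewer cells and weaker binding per cell cannot be told apart. The RXRα and input tracks held signal equal to 10 M reads each, while RARα is a list of 143280 peaks whose depth the list does not give. The paper states the uniquely mapped reads of both ChIP libraries, and the RXRα track holds fewer than it states for RXRα. All 5 of the hepatocyte genes looked at (Alb, Apoa1, Ttr, Serpina1a and Fgb) had a RARα peak and an RXRα region, and of the genes of other tissues Cd3e, Myh6, Neurod1 and Krt5 had neither.

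In mm9, Junb is at chr8:87500811-87502617, Jun at chr4:94715725-94718913, Fos at chr12:86814840-86818223, Egr1 at chr18:35020861-35024638 and Ier2 at chr8:87185230-87186751. Atf3 is at chr1:192994175-193007219, Klf6 at chr13:5860735-5869639, Klf10 at chr15:38221219-38230464, Errfi1 at chr4:150228028-150243001 and Myc at chr15:61816946-61821929. Fos, Egr1, Klf6, Errfi1 and Myc are on the plus strand and the others on the minus strand.

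Each of the 10 genes had a RARα peak with a score greater than 20 within 1 kb from its start, where 40.9% of all genes had one. The score is the number the peak caller gave each peak, and the start is the 5′ end of the gene. The window of a gene was 10 kb to each side of its start plus its body. All 10 genes had at least 1 RARα peak in this window, compared to 57.9% of all genes, and together they held 59 peaks. The number per gene ran from 2 at Fos and Atf3 to 22 at Errfi1, with a median of 3.5. The median was 1 over all genes and 2 over the genes with a RARα peak within 1 kb. Of the 59 peaks, 19 had their summit within 1 kb from the start. By the place of the summit, 22 lay upstream of the gene, 10 in the 5′ UTR, 13 in introns, 3 in coding exons, 2 in the 3′ UTR, 1 in another untranslated exon and 8 downstream of the gene.

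The highest RARα score per gene was greater than 100 at 9 of the 10 genes and greater than 200 at 4 of them. Of all genes, 5.18% and 0.384% had such a score, and this contrast follows from the choice of the genes. Junb and Jun, which encode DNA-binding subunits of the AP-1 transcription factor, had highest scores of 308 and 216. Fos, the AP-1 partner of the Jun proteins, had 146. Ier2, a nuclear protein of the early response, had 228. Among the other transcription factors, the zinc finger genes Klf6 and Klf10 had 190 and 182, the stress-induced Atf3 had 132, the growth regulator Myc had 124, and the zinc finger gene Egr1 had 60. Errfi1, which encodes a feedback inhibitor of the epidermal growth factor receptor, had 276. The genes thus spanned about the range from just above the median of all bound genes, which was 48, to the top of the list. The Junb peak had the fifth highest score of the 143280 peaks and the highest in the window of any protein-coding gene. The same peak also falls in the windows of Prdx2 and Rnaseh2a, whose starts lie 9131 and 8951 bp downstream of that of Junb.

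**Figure D1:**
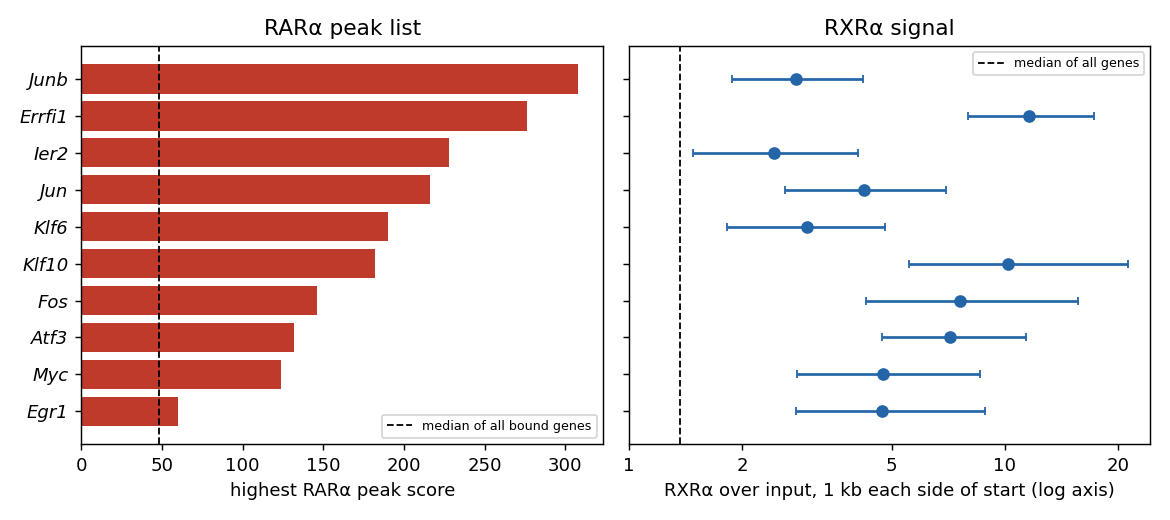
Highest RARα peak score (left) and RXRα over input within 1 kb to each side of the gene start (right, log axis) for the 10 genes. Bars on the right are exact 95% intervals that cover counting error only, and dashed lines are the medians of all bound genes (48) and of all genes (1.37). All 10 genes lie above both lines, and Junb, with the highest score, has one of the lowest RXRα ratios.

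RXRα was above input at the start of all 10 genes. Within 1 kb to each side of the start, RXRα over input was lowest at Ier2 (2.43) and highest at Errfi1 (11.6), and its median of 4.73 stood against 1.37 over all genes and 3.16 over the 9140 genes with a RARα peak within 1 kb. Errfi1 had 359 RXRα reads and 31 input reads there, a ratio of 11.6 (exact 95% interval 8.01 to 17.3). Klf10 had 114 and 11.2 reads, a ratio of 10.2 (5.58 to 21.3). Fos had a ratio of 7.61 (4.28 to 15.7) and Atf3 of 7.14 (4.72 to 11.4). These genes form the upper end of the order, and their intervals overlap one another.

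Myc and Egr1 followed with ratios of 4.74 (2.80 to 8.58) and 4.73 (2.78 to 8.84), and Jun with 4.22 (2.60 to 6.99). Klf6 had a ratio of 2.98 (1.83 to 4.80), Junb of 2.79 (1.88 to 4.19) and Ier2 of 2.43 (1.48 to 4.07). Neighbours in this order did not differ beyond their intervals, while the interval of Errfi1 lay above those of Jun, Klf6, Junb and Ier2. Intervals cover counting error only, and reads without molecular identifiers are not independent molecules. The order differs from that of the RARα scores, since Junb and Ier2 had the 2 lowest RXRα ratios of the 10 and were among the 3 genes with the highest scores. The other of these 3, Errfi1, had the highest RXRα ratio. Input itself was high at some of these starts. Its mean signal per 32 bp bin was 2.84 at Junb, 2.5 at Errfi1, 2 at Atf3, 1.98 at Klf6 and 1.94 at Ier2, but 0.903 at Klf10 and 0.984 at Fos, with a median of 0.774 over all genes.

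An RXRα region was a run of bins in which RXRα was at least 20 times input. Input was taken as no less than its mean of 0.603. Every one of the 10 genes had at least 1 such region in its window. The share was 47.9% of all genes and 72.6% of the genes with a RARα peak within 1 kb. There were 36 regions in all with a median width of 128 bp. Egr1 had 6, Errfi1 7, Junb and Atf3 5 each, Jun and Klf10 3 each, Fos, Ier2 and Myc 2 each, and Klf6 1. The highest ratio in a region was 109.5 at Errfi1, 86.3 at Fos, 74.7 at Junb, 71.4 at Klf10, 68.0 at Jun, 52.0 at Egr1, 48.1 at Ier2, 45.0 at Atf3, 33.2 at Klf6 and 21.6 at Myc. At Junb and Jun, the bin with the highest RXRα signal in the gene body (45 and 41) had input of 0. Ratios at such bins were taken over the mean input, so the order of the genes depends on input as well as on RXRα. By this ratio Myc is the gene nearest to the threshold, and it had no region when 30 times input was required. Of the 36 regions, 19 touched a RARα peak with a score greater than 20, 12 touched only RARα peaks of lower score, and 5 touched none. The shares over all RXRα regions are not given here, so these counts are descriptions. The 5 regions without any RARα peak were 2 downstream of Egr1, 1 in an intron of Atf3 and 2 upstream of Errfi1, among them the strongest region of Errfi1.

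A RARα peak was co-localized when it overlapped an RXRα region by at least 25% of the narrower interval. All 10 genes had a co-localized peak, compared to 27.2% of all genes and to 52.3% of the genes with a RARα peak within 1 kb. Pooled over peaks the share was ordinary, as 19 of the 59 RARα peaks were co-localized and 32.2% of all RARα peaks with a score greater than 20. Errfi1 alone supplied 22 of the 59 peaks and 5 of the 19, so the pooled share leans on this gene. Of the 19 co-localized peaks, 12 had a score of 50 or less. Such scores were usual, as a score of 51 had rank 7092 in the list and 32946 peaks had scores greater than 20. When only scores greater than 50 were kept, Junb, Fos, Atf3, Klf10 and Errfi1 still had a co-localized peak, as did 11.9% of all genes. Among the 6091 genes with a RARα score greater than 50, 2652 had one, a share near that of the 10. With RXRα at 30 times input 5 genes had one, namely Junb, Ier2, Atf3, Klf6 and Klf10, compared to 18.5% of all genes. The co-localized peak of Egr1, 3949 bp downstream of its start with a score of 22, lay nearest to the start of the neighbouring gene Gm17507.

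**Figure D2:**
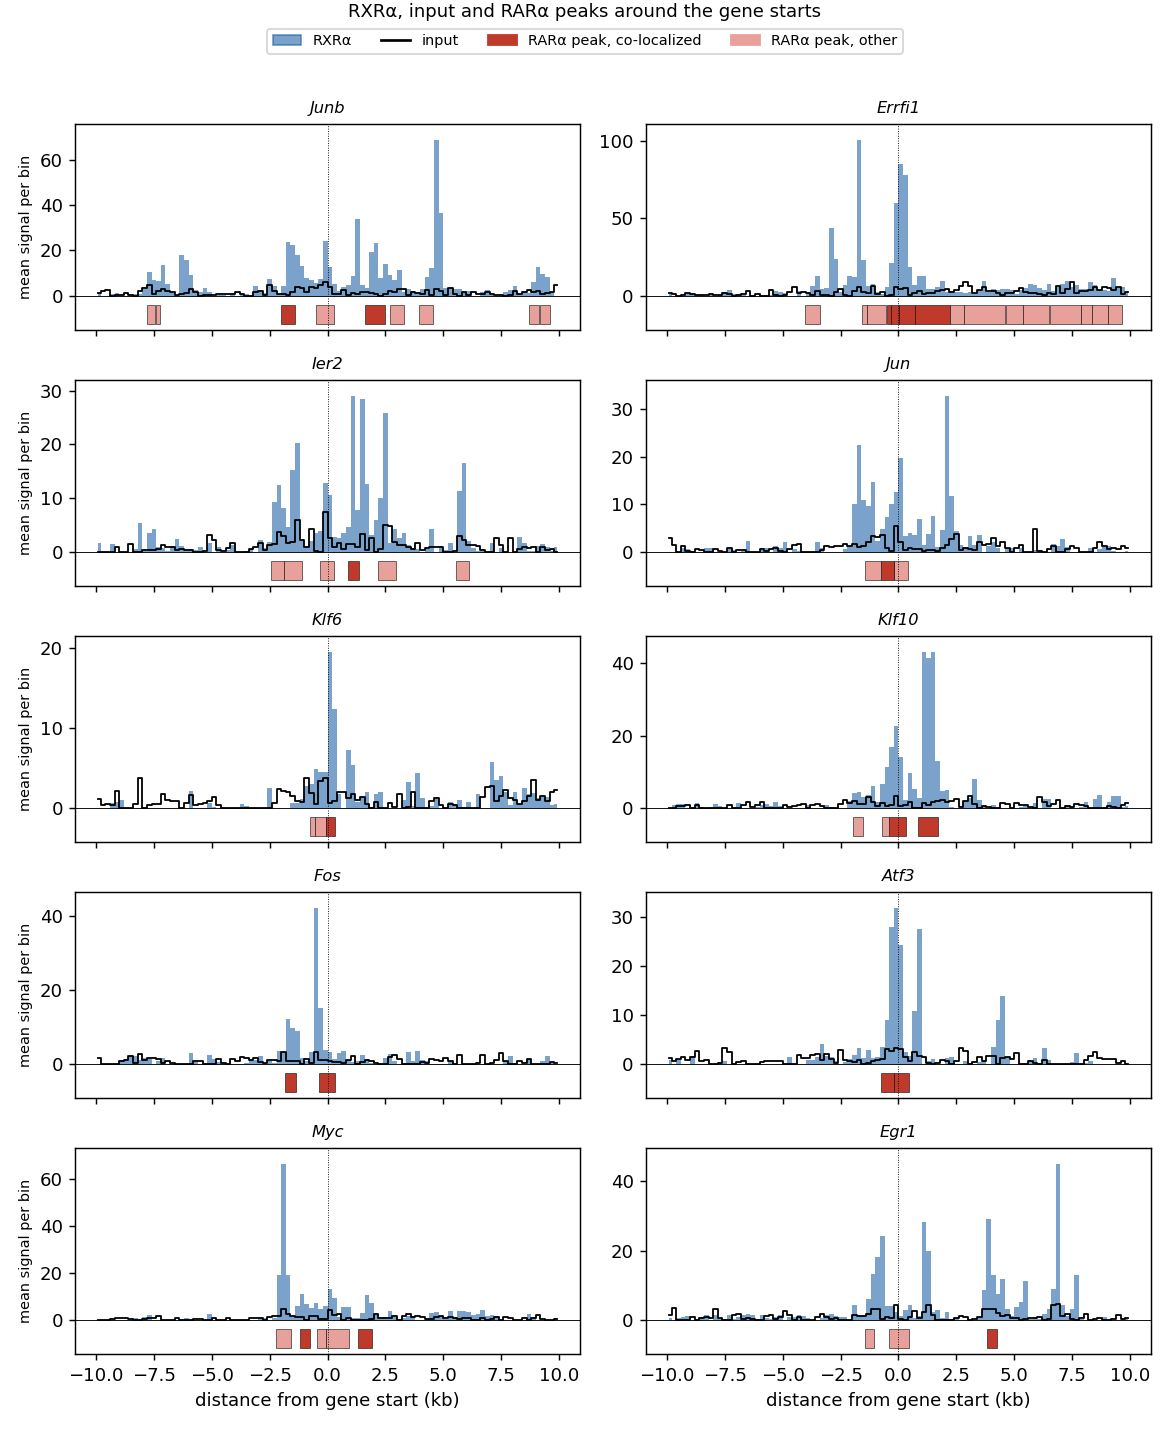
Mean RXRα (blue) and input (black line) signal per 32 bp bin in steps of 200 bp within 10 kb of the start of each gene, with RARα peaks of score greater than 20 as boxes below (dark when co-localized with RXRα). Genes are in the order of their highest RARα score and each panel has its own vertical scale. RXRα peaks beside the start at most genes, and RARα boxes run through the body of Errfi1.

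The highest-scoring RARα peak of most of these genes sat on the transcription start. Its summit was 9 bp from the gene start at Egr1, 16 bp at Ier2, 19 bp at Klf10, 22 bp at Junb, 33 bp at Jun, 35 bp at Fos and 84 bp at Atf3, all of them inside the 5′ UTR. Thus 7 of the 10 genes had the summit within 100 bp, compared to 29.9% of all genes with a RARα peak and 40.5% of the 1159 genes with a score greater than 100. The exceptions were Klf6, with the summit 310 bp upstream, Myc, with 169 bp downstream, and Errfi1, with 1157 bp downstream. At Myc and Errfi1 a transcript with a later start is annotated, and the summit was 4 and 3 bp from it, respectively. When the closest annotated transcript start was used instead, an alternative added once the values were known, 9 of the 10 genes were within 100 bp, compared to 39.6% of all genes with a peak and 54.1% of those with a score greater than 100.

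The strongest RXRα region mostly lay outside the highest-scoring RARα peak, as it did at most of all genes with both kinds of binding. The strongest RXRα region was centred 145 bp from the gene start at Klf6, 392 bp at Fos, 819 bp at Atf3, 1042 bp at Myc, 1135 bp at Ier2, 1171 bp at Egr1, 1296 bp at Klf10, 1305 bp at Junb, 2177 bp at Jun and 2876 bp at Errfi1. It was upstream at Fos, Myc and Errfi1 and downstream at the others, and a second region of Myc, 1726 bp downstream, had the same ratio of 21.6. None of the 10 was within 100 bp, where 7.37% of all genes with both kinds of binding had theirs. The distances had a median of 1153 bp against 6148 bp over the 9047 genes with both and 4909.5 bp over those with a score greater than 100. Windows include the gene body, so a long gene can hold a region far from its start. The 10 genes were 1522 to 14974 bp long and the comparison was not matched for gene length. The strongest RXRα region overlapped the highest-scoring RARα peak at 1 of the 10 genes, Fos, compared to 20.2% of all genes with both and 14.8% of those with a score greater than 100. At Fos this region, chr12:86814401-86814496, met only the edge of the peak, which begins at 86814471. Its midpoint was 427 bp from the RARα summit. Because a ratio can be high where input is empty, the bin with the highest RXRα signal within 10 kb was also located. It was 114 bp from the start at Klf6, 455 bp at Fos, 834 bp at Atf3 and between 1199 and 6868 bp at the other genes.

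**Figure D3:**
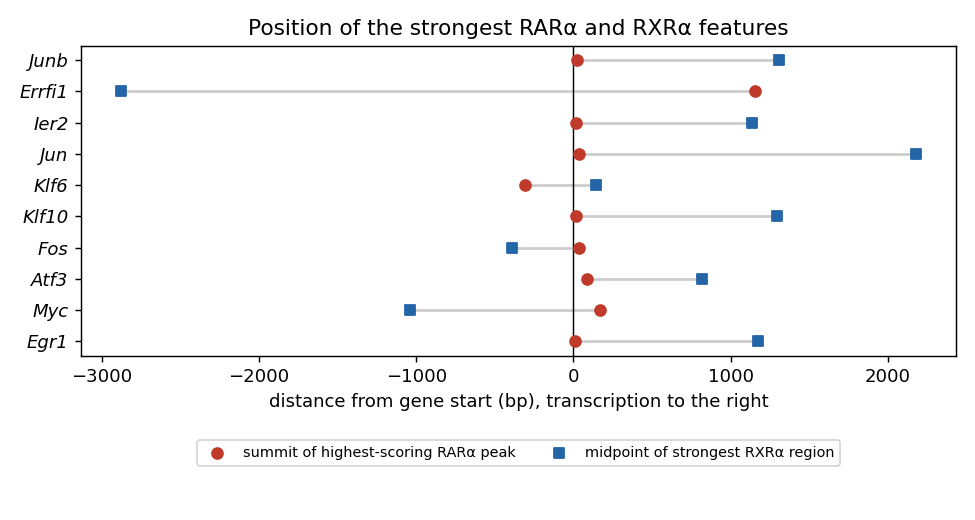
Distance from the gene start, in bp with transcription to the right, of the summit of the highest-scoring RARα peak (circles) and of the midpoint of the strongest RXRα region (squares) for each gene. The RARα summits lie within 100 bp of the start at 7 of the 10 genes, and the RXRα regions lie 145 to 2876 bp from it.

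Within these genes, the highest-scoring RARα peak was seldom the one with the most RXRα over input. It was so at 1 of the 10 genes, Atf3, compared to 36.2% of all genes with at least 2 RARα peaks, 27.8% of those with a score greater than 100 and 25.8% of the other early genes described below. The share also depends on the number of peaks, which reached 22 at Errfi1. At Junb the peak at the start, chr8:87502341-87503101, had a mean RXRα signal of 12.7 and input of 4.62, a ratio of 2.74. The peak 1828 bp upstream, with a score of 28, had RXRα of 16.6 and input of 0.944, a ratio of 17.6. The peak 2002 bp downstream, with a score of 58, had a ratio of 16.1. At Junb the RXRα signal of these peaks was thus similar and input made most of the difference between the ratios.

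At Ier2 both signals differed. Its peak at the start, chr8:87186491-87187060, had RXRα of 8.94 and input of 3.39, a ratio of 2.64, and the peak in its 3′ UTR, with a score of 32, had 18.1 and 1.27, a ratio of 14.3. At Klf6 the peak with a score of 190, chr13:5860211-5860671, had RXRα of 4.14 and input of 3.14, a ratio of 1.32, and the adjoining peak over the 5′ UTR, with a score of 39, had 15.8 and 0.5, a ratio of 26.1. Here RXRα and input differed in opposite directions across neighbouring peaks. The input of 0.5 was below the mean of 0.603, which was used for that ratio, and ratios over single peaks have no interval. At Klf10 the peak at the start, chr15:38230121-38230851, was itself co-localized with a ratio of 11.9, and an intronic peak 1144 bp downstream with a score of 42 had a ratio of 28.1. Its RXRα signal was 32.3 against 14.5 at the start, with input of 1.15 and 1.22.

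At Jun the peak at the start, chr4:94718481-94719111, had a ratio of 4.56, and the co-localized peak 432 bp upstream, with a score of 42, had 6.36. Fos had only 2 RARα peaks and both were co-localized, with ratios of 5.53 at the start (chr12:86814471-86815171) and 10.2 at 1640 bp upstream. Atf3 also had only 2, both co-localized and abutting over the start, with ratios of 7.80 (chr1:193006761-193007421) and 5.95. At Myc the peak with a score of 124, chr15:61816901-61817861, had a ratio of 3.48. Its co-localized peak 966 bp upstream, with a score of 25, had RXRα of 8.31 and input of 0.462, a ratio of 13.8 over the mean input of 0.603. A second strong peak of Myc, 1951 bp upstream with a score of 102, had the highest RXRα signal of its peaks, 34.2, but with input of 2.89 its ratio of 11.8 did not reach the threshold of a region. At Egr1 the peak at the start had RXRα of 2.74 and input of 1.15, a ratio of 2.39, and the peak 3949 bp downstream had 20.2 and 3.08, a ratio of 6.55, so that both signals were higher away from the start. The compared peaks were picked for a high ratio, which favours high RXRα and low input in them, so these pairs of values are descriptions. The part of input in these ratios was not tested.

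**Figure D4:**
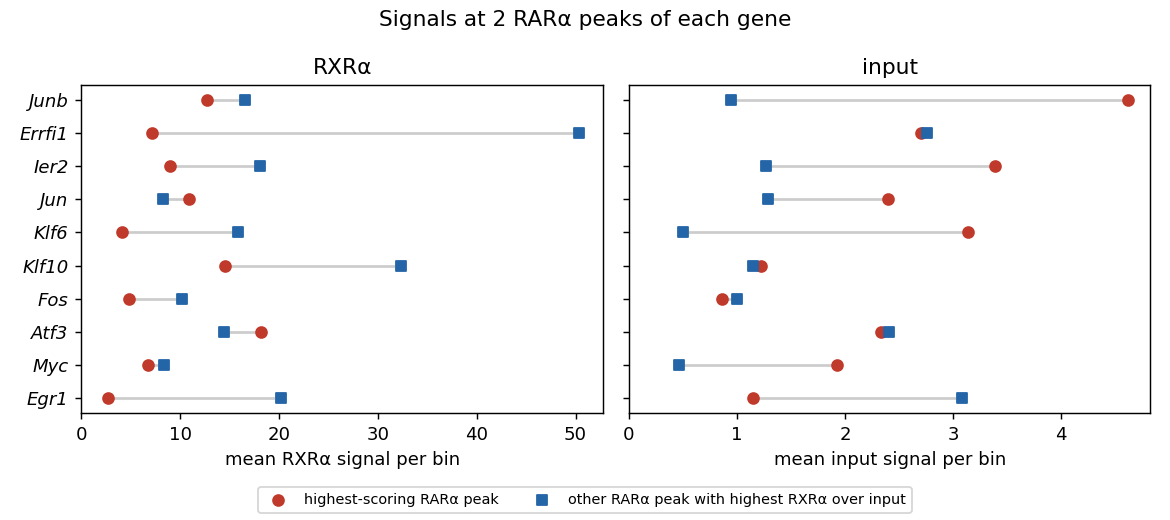
Mean RXRα (left) and input (right) signal per bin at the highest-scoring RARα peak of each gene (circles) and at its other RARα peak with the highest RXRα over input (squares). At Junb the RXRα values are 12.7 and 16.6 while the input values are 4.62 and 0.944.

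Errfi1 differed from the other 9 genes in the extent of RARα. All but the most upstream of its 22 peaks in the window followed one another with gaps of 10 bp, and RARα peaks covered 98.9% of the gene body of 14974 bp. The other genes had between 3.52% (Atf3) and 50.1% (Ier2) of their bodies covered, and the median of genes of at least 8 kb was 0.614%. Of 14590 such genes, 14 were covered over at least 80%. When adjoining peaks were joined, the Errfi1 stretch ran from 1557 bp upstream of the gene start to 4640 bp beyond the gene end, chr4:150226471-150247641. It held 28 peaks over 21.2 kb and was the second widest of 27328 joined stretches, whose median width was 540 bp. The scores stayed high along the gene, as the 15 peaks more than 2 kb downstream of the start had scores of 97 to 152 with a median of 115.

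Along the Errfi1 body RXRα was raised together with input. At those 15 peaks RXRα over input lay between 0.646 and 3.45 (median 1.73), and 1 of them was co-localized. At the 3 peaks within 500 bp of the gene start the ratios were 11.8, 16.6 and 18.3, although their scores were only 51, 21 and 45. The peak with 16.6 had RXRα of 10 and input of 0, so its ratio was taken over the mean input of 0.603. Input at the peaks with 11.8 and 18.3 was 4.18 and 2.76. Beyond the gene end, where the stretch held another 7 RARα peaks with scores of 36 to 166, the mean RXRα signal rose to 20.3 with input of 3.69. Over the body the mean was 8 for RXRα and 3.27 for input, where the medians of all gene bodies were 0.576 and 0.615. These levels ranked 239 for RXRα and 38 for input among the 22367 gene bodies. The part of input in the RARα stretch was not tested, since the RARα list holds no read counts.

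**Figure D5:**
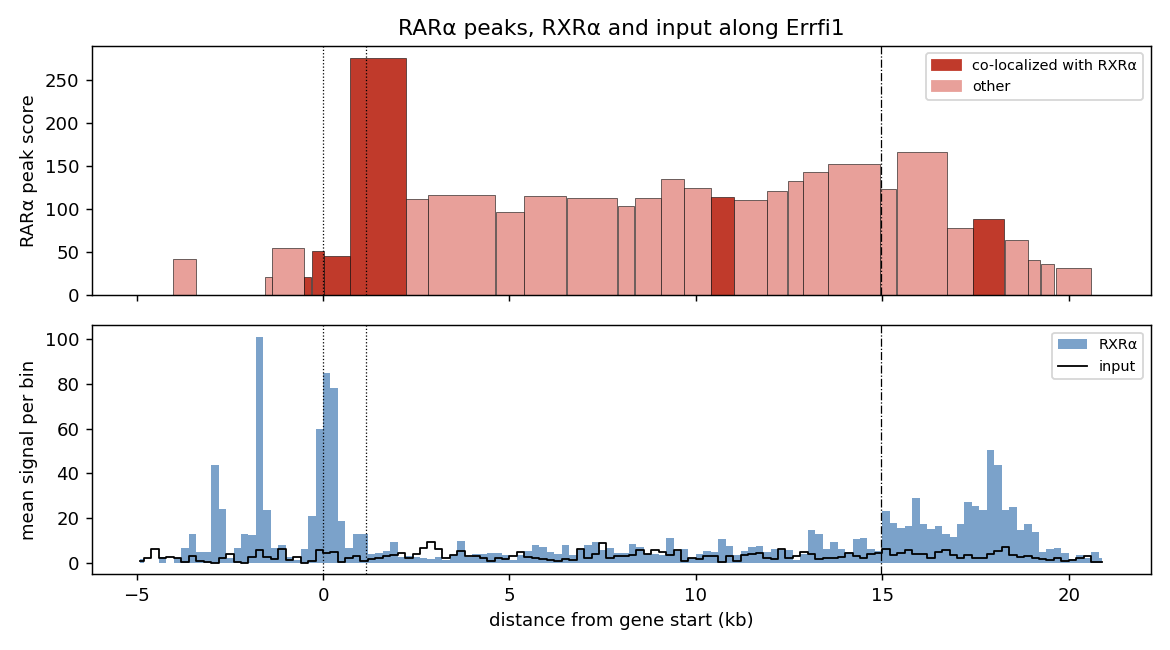
RARα peak scores (top, bars as wide as the peaks, dark when co-localized) and mean RXRα and input signal per bin in steps of 200 bp (bottom) along Errfi1. Dotted lines mark its annotated starts and the dash-dotted line its end. RXRα is highest upstream and at the gene start, and RARα scores are highest at the later start and remain at 97 to 152 through the body.

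The gene start and the later start of Errfi1 also differed in sequence. Both sequences below are upstream of an annotated start. They are shown because their peaks differ in RARα score and in mean RXRα signal, although both peaks were co-localized with RXRα. The earlier sequence, chr4:150227909-150227985, is at the RARα peak 83 bp upstream of the gene start with a score of 51, mean RXRα of 49.5 and input of 4.18. It holds a DR5 from 89 to 73 bases upstream of the start with 1 mismatch to the consensus, and the RARα summit falls within the repeat. The bin over the repeat had an RXRα signal of 66 and input of 7, which is below the threshold of a region. The later one, chr4:150229082-150229181, ends at the base before the start of the shorter transcripts, under the RARα peak with a score of 276, mean RXRα of 7.19 and input of 2.70. An RXRα region with a ratio of 21.6, chr4:150229025-150229120, overlaps the first part of this later sequence. The sequence holds a cyclic AMP response element (CRE, TGACGTCA) and a TATA box (TATAAA). Capitals mark the half-sites of the DR5 in the earlier sequence, and the CRE and the TATA box in the later one.
Errfi1 gene start: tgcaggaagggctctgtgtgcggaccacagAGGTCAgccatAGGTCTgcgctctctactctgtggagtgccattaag
Errfi1 later start: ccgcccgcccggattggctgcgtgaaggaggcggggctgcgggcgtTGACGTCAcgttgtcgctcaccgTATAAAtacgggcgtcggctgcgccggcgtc

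This DR5 was the only direct repeat with a spacing of 1 to 5 bases within 100 bp of the summits of the 59 RARα peaks, a share of 1.69% compared to 1.63% of all RARα peaks with a score greater than 20. A DR5 alone was present at 0.240% of all RARα peaks with a score greater than 20, that is at 79 of them, of which 47 were co-localized with RXRα (59.5%, compared to 32.2% of all such peaks). The repeats were searched on both strands with at most 1 mismatch over both half-sites. No such repeat was found within 100 bp of the midpoints of the 36 RXRα regions of these genes, where 5.81% of all RXRα regions had one. A single AGGTCA half-site was present at 1 of the 59 RARα peaks, the same Errfi1 peak, compared to 13.7% of all.

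The 250 bases upstream of the gene starts held short elements known from stimulus-responsive promoters. The CRE core TGACG was present at Junb, Fos, Egr1, Ier2 and Klf10 (5 of 10) and in 19.4% of all promoters of the same length. TATAAA was present at Junb, Fos and Myc, compared to 12.3%. The GC box GGGCGG was present at Jun, Fos, Atf3, Klf6, Klf10 and Myc, compared to 39.6%. The full CRE was present at Ier2 alone (1.91% of all), and the CArG box, the element bound by serum response factor, at Egr1 alone, which had a pair of them (1.34%). AP-1 sites (TGANTCA) and EGR sites (GCGGGGGCG) were found in none of the 10 windows, compared to 6.00% and 3.27% of all promoters. Both strands were searched, the full CRE contains the CRE core, and a match is a description of letters and not a bound site. The median number of CpG dinucleotides in the window was 17 for these genes and 8 for all promoters, and Errfi1 with 3 was the lowest of the 10.

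The stretches just upstream of 5 of these starts are given because the highest-scoring RARα peak of each of these genes lies over all or part of them. Junb is chr8:87502618-87502767 on the minus strand, Fos chr12:86814690-86814839 on the plus strand, Ier2 chr8:87186752-87186851 on the minus strand, Klf10 chr15:38230465-38230564 on the minus strand and Myc chr15:61816796-61816945 on the plus strand. Each is written 5′ to 3′ in the direction of the gene and ends at the base before its start. Capitals mark the CRE core and TATA box in Junb, the CRE core, GC box and TATA box in Fos, the CRE in Ier2, GC boxes in Klf10, and GC boxes with a TATA box in Myc that reads on the other strand and adjoins one of them.
Junb: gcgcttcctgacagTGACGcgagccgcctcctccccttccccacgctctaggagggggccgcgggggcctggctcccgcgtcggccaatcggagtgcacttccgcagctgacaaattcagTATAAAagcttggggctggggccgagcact
Fos: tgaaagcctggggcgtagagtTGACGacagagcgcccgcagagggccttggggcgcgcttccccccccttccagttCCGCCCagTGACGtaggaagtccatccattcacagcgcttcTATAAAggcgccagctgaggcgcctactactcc
Ier2: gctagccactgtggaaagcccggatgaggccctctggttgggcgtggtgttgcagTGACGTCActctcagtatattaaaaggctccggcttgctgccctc
Klf10: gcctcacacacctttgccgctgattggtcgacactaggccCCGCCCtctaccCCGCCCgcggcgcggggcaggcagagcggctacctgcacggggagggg
Myc: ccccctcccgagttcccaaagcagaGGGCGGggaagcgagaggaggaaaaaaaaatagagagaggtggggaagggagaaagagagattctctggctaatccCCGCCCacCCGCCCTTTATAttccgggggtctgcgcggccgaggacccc

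Other genes of the early response were counted for comparison, from a list of 50 that was drawn up with earlier results of these data known. A RARα peak was present at 44 of them (88%), an RXRα region at 35 (70%) and a co-localized peak at 28 (56%), compared to 57.9%, 47.9% and 27.2% of all genes. The highest score was greater than 100 at 24 of the 50 and greater than 200 at 4, namely Jund (272), a relative of Junb, the antiproliferative genes Btg2 (239) and Tob1 (231), and Zfp36 (226), which promotes the decay of cytokine mRNAs. The next was Rhob (189), a small GTPase. Zfp36 also had the highest co-localized RXRα ratio, 212, followed by Sik1 (131) and Csrnp1 (119). Egr3, Egr4, Maff, Nr4a1, Ptgs2 and Spry2 had no RARα peak with a score greater than 20.

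These genes shared the position of the RARα summit with the 10. The summit of the highest peak was within 100 bp of the gene start at 28 of the 44 bound genes, and the strongest RXRα region overlapped that peak at 3 of the 34 genes with both. Their median RXRα over input around the start was 3.59. Among the 10 genes the value was 4.73, and 7 of them had an RXRα region centred within 1 kb from the start, compared to 21.6% of all genes. The members without one within 1 kb were Junb, Ier2 and Myc.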

How the data were processed

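Chromatin from liver was sequenced on an Illumina instrument. Per the labels, the authors used CASAVA 1.4 and Bowtie, and MACS for the RARα peaks. For RXRα and input, the authors deposited signal, whole-number coverage in bins of 32 bp on a linear scale with mm9 in the header, in which 1 read covers 5 bins. For RARα, the authors deposited a peak list with a score and a false discovery rate in percent, and the latter was not used. The paper's methods name mm10 for alignment, but 0 RARα peaks reach beyond a chromosome end of NCBI37, which was used throughout.

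The RXRα track was deposited as a normalized signal, and reads and their intervals are those of the deposited tracks. RXRα was scaled to the input mean of 0.603 per bin, by a factor of 0.99994 because both tracks already held 10 M reads. Bins in which RXRα reached 20 times input, taken as no less than its mean, were joined within 200 bp into 42117 regions. In ratios over RARα peaks and promoters, input was at least the mean. Peaks belonged to a gene when the summit, and regions when the midpoint, lay within 10 kb from its start or in its body. The score threshold, 10 kb distance, 20-fold cut off and 25% overlap were taken from the paper's methods, but gene bodies were added to the window, the overlap was of the narrower interval, and RXRα regions were built from bins in place of MACS peaks. The 10 genes and the lists were chosen with earlier results of these data known. The genes named were the 10, neighbours starting within 10 kb, the highest of the other list by score and co-localized ratio, and the genes at the top of the peak list, of which only those sharing a peak with Junb are given. No p-values were computed, because each group had 1 library. One gene of the list for other tissues is not reported here. The steps were tested on simulated data. Alternatives are given in the closing section. Python 3.11.15, numpy 2.4.6, pandas 2.3.3, scipy 1.17.1, pysam 0.24.0 and matplotlib 3.10.9 were used.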

Additional observations from a re-analysis of the deposited data

How the results depend on the processing

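All 10 genes kept a RARα peak with no score minimum, with scores greater than 50, within 1 or 5 kb, by nearest gene and with abutting peaks merged, and 9 did with scores greater than 100, Egr1 being the exception. The number of genes with a co-localized peak was 5 with scores greater than 50, 4 with scores greater than 100 and 5 with RXRα at 30 times input, where 11.9%, 2.58% and 18.5% of all genes had one. The contrast at the 2 score cuts follows from the choice of the genes. Of the 6091 and 1159 genes with a score greater than 50 and 100, 2652 and 576 had a co-localized peak. The number among the 10 genes was between 7 and 10 under the other settings. The 59 RARα peaks became 136 without a score minimum, 32 and 24 with scores greater than 50 and 100, 19 within 1 kb and 26 when abutting peaks were merged. The 36 RXRα regions became 11 within 1 kb, 108, 59 and 21 at 5, 10 and 30 times input, and 56 when the mean input alone was used. The median RXRα over input around the starts kept within 1.5 times of 4.73 under every setting tried. No paired analysis was possible because each group had 1 library, and none could be left out. Around a start, 11.2 to 35.8 input reads limit the precision of a ratio.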
